A study of Mus musculus with 6 samples.

Results

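The genes described are the fructose-handling genes of the mouse intestinal epithelium: 4 sugar carriers of the SLC2 family (Slc2a5, Slc2a7, Slc2a8 and Slc2a9), 3 enzymes of fructose breakdown (Khk, Tkfc and Glyctk), the transcription factor gene Mlxipl, which encodes ChREBP, and Txnip, one of its best known targets. They and the gene lists set beside them were chosen by gene symbol, with earlier results of these data known. Their counts beside the shares of all genes are therefore a description and not a test. Each of the 9 symbols matched 1 Ensembl identifier among the 55450 of the count table, and all 9 were among the 15028 genes with enough counts to be tested. The data were polyA RNA-seq counts from 6 libraries, each from the scraped small intestinal epithelium of 1 mouse. The 3 knockout mice carried Vil1-Cre-ERT2, a Cre recombinase driven by the villin 1 promoter and activated by tamoxifen, together with homozygous loxP alleles of Ncor1 and of a second corepressor gene. The 3 control mice carried the same loxP alleles without Cre. Per the labels' protocols mice were injected with tamoxifen at 15 mg per 100 g of body weight for 5 days at an age of 8 to 9 weeks, and were housed in metabolic cages from day 21 with free access to food. The comparison addressed how loss of both corepressors in the epithelium alters carbohydrate transport. Only the knockout mice carried Cre, so the loss of the corepressors and the presence of the transgene cannot be told apart.

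Fructose enters the enterocyte from the gut lumen through GLUT5, the product of Slc2a5, and leaves it for the blood through GLUT2 (Slc2a2). Inside the cell ketohexokinase (Khk) phosphorylates fructose to fructose 1-phosphate, which is split into dihydroxyacetone phosphate and glyceraldehyde. Triokinase (Tkfc) phosphorylates the glyceraldehyde so that it too can enter glycolysis. ChREBP senses sugar phosphates, binds paired E-box elements in DNA together with its partner MLX and, in mice, is needed for the intestine to raise its fructose-handling genes when fructose is eaten.

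The ChREBP element itself is visible in the promoter of Txnip, and the stretches of the 9 genes' promoters that held a motif are shown because they hold letters that ChREBP or nuclear receptors, the partners of NCoR1, are known to bind. RefSeq promoters on GRCm38.p6, which is mm10, covered 250 bases before to 50 after each annotated start, and all 9 genes matched, Mlxipl with 2 starts. The Txnip stretch holds 2 copies of CACGNG with 5 bases between them, the paired element, written in capitals with its spacer:
Txnip, chr3:96557852-96557908, + strand: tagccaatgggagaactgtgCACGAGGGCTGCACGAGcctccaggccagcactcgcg
Of 32817 promoters searched on both strands, 16 (0.0488%) held this exact pattern, and Txnip was the only gene of the 9 with it. Paired elements with other letters were not searched, so this is not the share of all ChREBP elements. The single E-box CACGTG, capitals below, lay in the promoters of Khk and Mlxipl, at the first Mlxipl start; 7.15% of all promoters held it.
Khk, chr5:30921468-30921513, + strand: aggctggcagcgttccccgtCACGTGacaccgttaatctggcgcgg
Mlxipl, chr5:135089772-135089817, + strand: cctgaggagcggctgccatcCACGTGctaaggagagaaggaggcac
The nuclear receptor motif AGGTCA, which reads TGACCT on the opposite strand, was found in the promoters of Slc2a9 and Glyctk and in 16.3% of all promoters. Slc2a9 held 2 copies, and the one nearer its annotated start is shown.
Slc2a9, chr5:38483416-38483461, - strand: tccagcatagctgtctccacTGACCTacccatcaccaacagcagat
Glyctk, chr9:106158148-106158193, - strand: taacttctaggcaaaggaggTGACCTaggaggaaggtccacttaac
The motifs were absent from these windows of Slc2a5, Slc2a7, Slc2a8 and Tkfc and from the second Mlxipl start. Arrdc4, Mlx, Mlxip, Slc2a2 and Pklr, another textbook ChREBP target gene, were searched likewise. The promoters of Mlx and Arrdc4 held CACGTG, and those of Slc2a2 and of the first Pklr start held AGGTCA. None of these promoters held the exact paired pattern. A match is a description of letters and not a bound site.

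Of the 9 genes 6 fell in the knockout and none rose. The other 3 missed the threshold, an adjusted p of 0.05 in the quasi-likelihood test of edgeR with Benjamini-Hochberg adjustment over every gene tested. Among all genes tested 18.3% fell and 17.3% rose. At an unadjusted p under 0.05 no member rose and 7 fell, where 22.8% of all genes rose and 24.1% fell. By DESeq2 none rose (20.1% of all genes) and 6 fell (19.7%), and by limma-voom none rose (17.6%) and 6 fell (17.7%). With the length and GC trend removed 5 fell, where 13.3% of all genes did, with no low-count filter 7 (12.8%) and with library-size scaling 8 (30.3%). The share of all genes that fell was 11.8%, 12.7% and 19.5% without controls 482, 483 and 486 and 13.2%, 15.2% and 11.0% without knockouts 423, 476 and 477, and 5 to 7 of the 9 fell. The median log2 fold change of the 9 genes was -1.21, against -0.06 over all genes tested. For the same 6 genes the highest knockout library lay below the lowest control library, a pattern seen in 26.4% of genes tested. Levels are CPM, counts scaled to a common library size with TMM factors, and the libraries are named by genotype and animal number. In scraped tissue fewer cells of a type and less RNA per cell cannot be told apart.

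**Figure D1:**
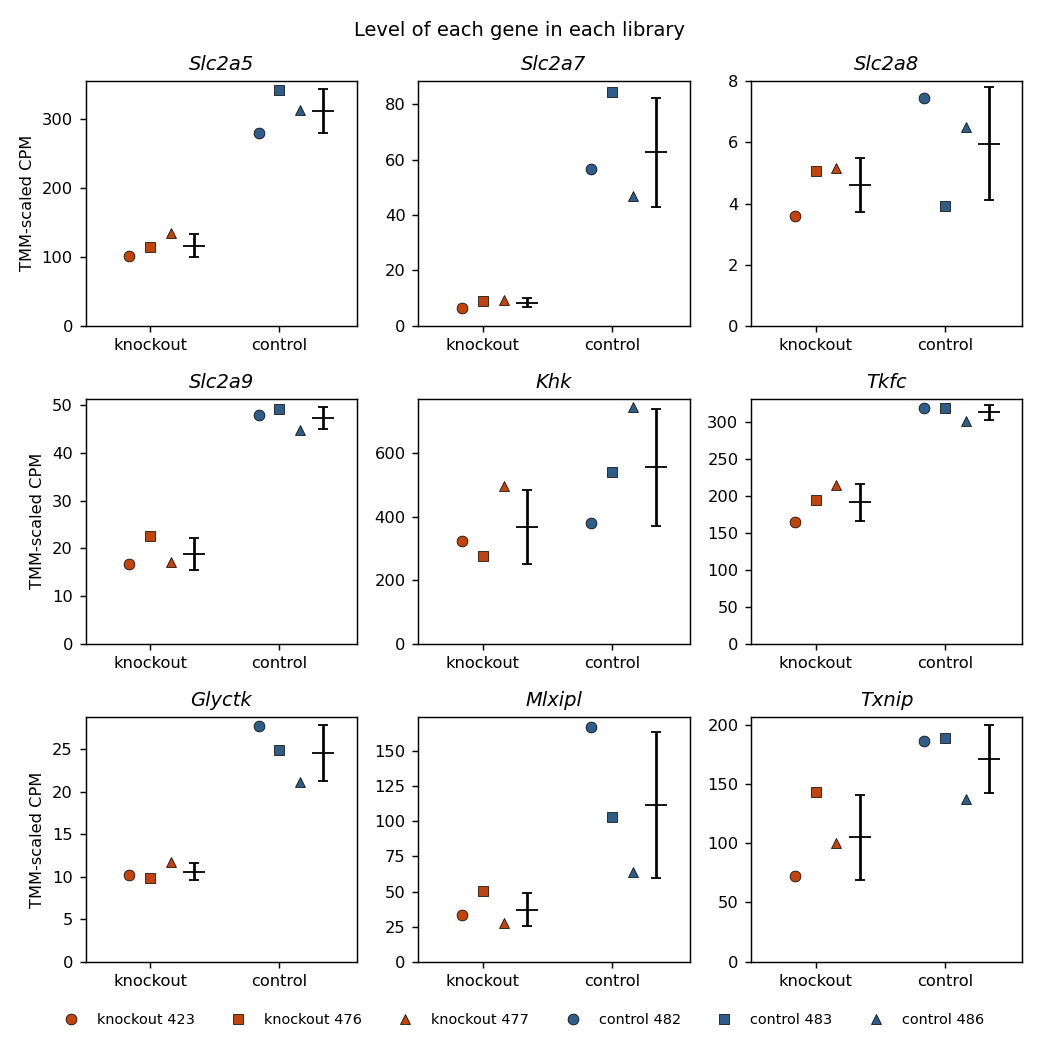
Level of each of the 9 genes in TMM-scaled CPM (vertical axis, from 0), with the 3 knockout libraries left of the 3 control libraries; symbols are single mice and the bars are the mean and SD of each genotype. For Slc2a5, Slc2a7, Slc2a9, Tkfc, Glyctk and Mlxipl every knockout library lies below every control library, whereas the genotypes overlap for Slc2a8, Khk and Txnip.

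The libraries held 23476031 to 34568205 counts in knockouts and 26199718 to 46835165 in controls. The targeted gene Ncor1 was at 31.3, 36.4 and 22.5 CPM in knockouts 423, 476 and 477, against 140, 137 and 99.3 CPM in controls 482, 483 and 486. Over all genes 2596 rose and 2752 fell. Scaling by library size only gave 1133 (7.54%) that rose and 4554 (30.3%) that fell and moved the median of all genes by -0.44 on the log2 scale. The top 20 genes of each library held 22.3% to 29.1% of its counts in knockouts and 12.8% to 15.9% in controls. Of 10 epithelial structure markers 1 fell and none rose by edgeR. With DESeq2 2 fell and 1 rose, and with limma-voom 1 fell and 1 rose. The summed level of the 10 was 9821 to 13839 CPM in knockouts and 13052 to 14551 CPM in controls. Duodenum, jejunum and ileum were collected apart, and which of them a library holds is not stated. Of 7 proximal markers 3 rose and 1 fell, with a summed level of 558 to 666 CPM in knockouts and 1831 to 3068 CPM in controls (483 to 627 and 251 to 387 CPM without lactase, the most abundant of them). Of 7 distal markers 1 rose and 1 fell by edgeR, and 3 fell with DESeq2 and 2 with limma-voom. Their summed level was 2308 to 3784 CPM in knockouts and 4340 to 5243 CPM in controls. Without the most abundant of them the sums overlapped, at 1165 to 1774 CPM in knockouts and 1410 to 2304 CPM in controls. All 4 tuft cell markers fell (1.21 to 6.40 CPM in knockouts, 48.9 to 152 CPM in controls), as did 2 of 8 tested leukocyte markers (56.5 to 160 and 105 to 382 CPM) and 3 of 5 Paneth cell markers (676 to 1097 and 882 to 4205 CPM; 2 with limma-voom). Of 6 goblet cell markers 1 rose and 3 fell (6474 to 7601 CPM in knockouts, 7472 to 11098 CPM in controls). Of 6 villus tip markers 2 rose and 2 fell (26212 to 53592 CPM in knockouts, 15850 to 23249 CPM in controls; 1821 to 5750 and 1596 to 2508 CPM without Apoa4, the most abundant). All 5 red blood cell markers rose by edgeR and 3 with limma-voom (35.5 to 543 CPM in knockouts and 7.95 to 22.2 CPM in controls). No marker on these lists was without a count in a whole genotype, and the part of these differences in the results was not tested.

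The apical fructose carrier gene Slc2a5 (ENSMUSG00000028976) spans 150119283 to 150144169 of chromosome 4 in mm10. It had 101, 114 and 134 CPM in knockouts 423, 476 and 477, against 279, 342 and 312 CPM in controls 482, 483 and 486. The genotypes were well apart, with the highest knockout below the lowest control, and the libraries of each genotype lay close together. Its log2 fold change, -1.42 with an SE of 0.21, left 37.3% of the control level (adjusted p = 0.0015). Under the 16 alternatives of processing it ran from -1.87 to -1.23, and the call held in each. Patterns over the 6 libraries were compared by the root mean square difference of centred log2 CPM. Genes without a symbol and those with Gm-number or Rik symbols were left out. The most similar were those of Fam126b (0.07), Abcb10 (0.07) and Atp1b1 (0.10), against a median of 0.80 over the genes compared. Atp1b1 encodes the beta subunit of the sodium pump and averaged 957 CPM in knockouts and 2563 CPM in controls.

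Slc2a7, which encodes GLUT7, a close relative of GLUT5 of less certain substrate, fell furthest of the 9. The gene (ENSMUSG00000062064) lies next to Slc2a5 on chromosome 4, at 150148972 to 150168482 and on the same strand. It stood at 6.40, 8.88 and 9.38 CPM in knockouts 423, 476 and 477, against 56.4, 84.5 and 46.8 CPM in controls 482, 483 and 486. The log2 fold change was -2.93 (SE 0.28, adjusted p = 0.00013), which left 13.1% of the control level. The fall was steeper than that of its neighbour: per kilobase of exon the Slc2a7 level was 12.9% ± 1.32 of the Slc2a5 level in knockouts and 36.4% ± 8.86 in controls (SD, n = 3 each), a ratio within a library that scaling does not touch. The exact two-sided permutation test of that ratio gave p = 0.1, the smallest that 3 against 3 allows, and 0.13 when adjusted over the 13 ratios computed.

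Slc2a9 encodes GLUT9, known chiefly as a urate carrier, and fell about as far as Slc2a5. It was at 16.8, 22.7 and 17.0 CPM in knockouts 423, 476 and 477, against 47.9, 49.2 and 44.8 CPM in controls 482, 483 and 486, which gave a log2 fold change of -1.33 with an SE of 0.20 (adjusted p = 0.0014). The control libraries differed by a factor of only 1.10 between the highest and the lowest, the knockout libraries by 1.35. The intracellular carrier GLUT8 (Slc2a8) was the lowest of the carriers, at 3.58, 5.05 and 5.18 CPM in knockouts and 7.46, 3.92 and 6.52 CPM in controls. Control 483 lay within the knockout range, and the log2 fold change of -0.38 (95% interval -1.08 to 0.33, adjusted p = 0.37) did not pass the test. Its counts ran from 90 to 354 per library. After each library's trend with gene length and GC content was removed its log2 fold change was 0.038.

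The other SLC2 carriers gave a mixed picture around these 4. GLUT2 (Slc2a2), the basolateral exit for fructose and glucose, averaged 92.8 ± 12.3 CPM in knockouts and 607 ± 144 CPM in controls (SD, n = 3 each), 15.3% of the control level. Of the 5 other SLC2 genes with enough counts 2 fell and none rose by edgeR, where 18.3% of all genes fell and 17.3% rose. At an unadjusted p under 0.05 1 rose, and 0 rose with DESeq2 and 1 with limma-voom. Besides Slc2a2 the one that fell was Slc2a10 (0.446 and 2.34 CPM on average in knockouts and controls; log2 fold change -2.32, adjusted p = 0.024), whose call was lost without control 482 (adjusted p = 0.085) or knockout 423 (0.050). Slc2a3 (-0.65) and Slc2a6 (2.36, adjusted p = 0.10) did not pass. Slc2a6 had no count in control 482. It passed without control 483 (log2 fold change 5.03, adjusted p = 0.0034), with limma-voom (4.28, 0.015), with limma-trend (2.13, 0.022) and with no low-count filter (2.35, 0.00032).

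Khk, the gene of the enzyme that commits fructose to its own pathway (ENSMUSG00000029162, chromosome 5, 30921431 to 30931248), was the most abundant of the 9 per length and did not pass the test. It stood at 325, 277 and 498 CPM in knockouts 423, 476 and 477, against 379, 541 and 746 CPM in controls 482, 483 and 486. Knockout 477 lay above control 482, so the genotypes overlapped, and both were spread nearly as widely, by factors of 1.80 and 1.97 between their highest and lowest library. The log2 fold change was -0.60 (SE 0.32, 95% interval -1.31 to 0.11, adjusted p = 0.16), which leaves room for a fall as large as that of Tkfc and for no change. With library-size scaling alone it was -1.05 with an adjusted p of 0.011. The counts cover the whole gene, so the Khk-A and Khk-C isoforms were not told apart. Nearest in pattern were Laptm4a (0.12), Dao (0.14), a D-amino acid oxidase gene, and Calml4 (0.14), against a median of 0.67.

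Tkfc (ENSMUSG00000034371, chromosome 19, 10587791 to 10605654), the triokinase gene, was at 165, 194 and 215 CPM in knockouts 423, 476 and 477, against 319, 319 and 302 CPM in controls 482, 483 and 486. Every knockout was below every control, and the controls differed by a factor of 1.06 only. Its log2 fold change was -0.71 (SE 0.21, adjusted p = 0.025), and the call was lost with any 1 of 5 libraries left out: the adjusted p was 0.063 without control 482, 0.081 without control 483, and 0.088, 0.078 and 0.058 without knockouts 423, 476 and 477. With the length and GC trend removed it was -0.30 (adjusted p = 0.33). Exons of Cyb561a3 and Ddb1 on the opposite strand overlap 12.9% and 7.10% of its exon bases; neither gene passed the test (log2 fold changes of -0.39 and 0.29), and how shared reads were assigned is not given in the sources used here.

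Glyctk encodes glycerate kinase, which recovers glyceraldehyde that has been oxidised to glycerate. The gene (ENSMUSG00000020258, chromosome 9, 106152857 to 106158138) was at 10.2, 9.84 and 11.7 CPM in knockouts 423, 476 and 477, against 27.7, 24.9 and 21.1 CPM in controls 482, 483 and 486. The knockout libraries lay close together, and the fall to 43.1% of the control level (log2 fold change -1.21, SE 0.20, adjusted p = 0.0024) held in each of the 16 alternatives. Exons of an antisense gene, D030055H07Rik, cover 52.1% of its exon bases; that gene was at 0.169 CPM or less in every library.

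Of 9 other genes of fructose, polyol and triose handling 1 rose and 2 fell, shares near those of all genes tested (17.3% and 18.3%), with a median log2 fold change of 0.22. At an unadjusted p under 0.05, with DESeq2 and with the length and GC trend removed 3 rose and 2 fell. Scaled by library size, none rose and 4 fell. The one that rose was Aldoc, the aldolase C gene (log2 fold change 0.87, adjusted p = 0.040), but not with any library other than control 483 left out (adjusted p from 0.055 to 0.11) nor with library-size scaling (0.25). Besides Slc2a2, Sord, whose product makes fructose from sorbitol, fell, at 227, 286 and 301 CPM in knockouts and 429, 447 and 560 CPM in controls. Its log2 fold change was -0.82 (adjusted p = 0.022), and the call was lost without control 483 or any 1 knockout (adjusted p from 0.051 to 0.077). Akr1b3, whose product makes sorbitol from glucose, was at 9.44, 3.09 and 3.22 CPM in knockouts 423, 476 and 477, against 2.26, 2.09 and 3.01 CPM in controls 482, 483 and 486, and did not pass (log2 fold change 1.10, adjusted p = 0.085). Knockout 423 stood apart, and without it the log2 fold change was 0.39. The gene passed with DESeq2 (adjusted p = 0.038), with no low-count filter or with the length and GC trend removed (0.025 each) and without knockout 476 (0.049).

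**Figure D2:**
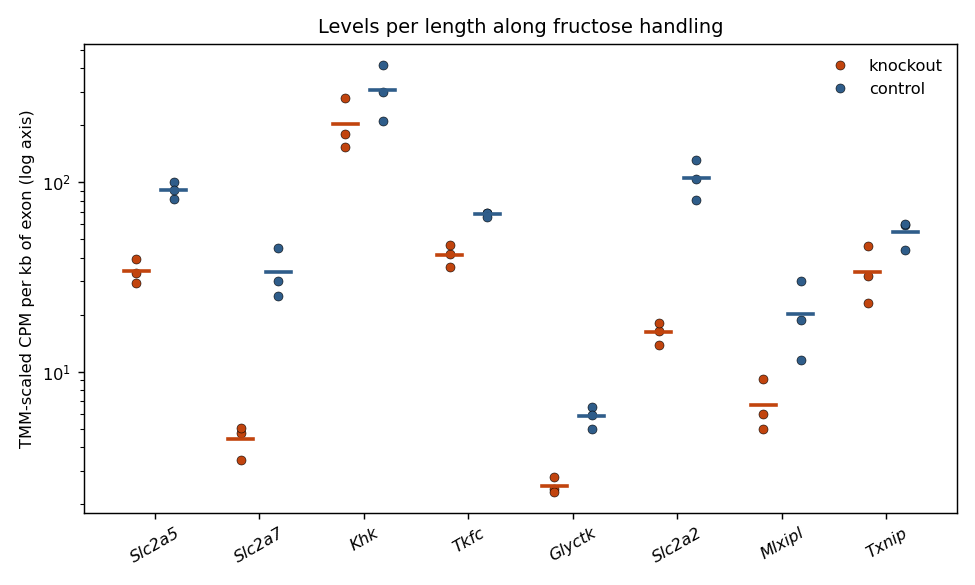
TMM-scaled CPM per kilobase of exon on a log axis for genes ordered by their place in fructose handling, ending with Mlxipl and Txnip; points are single libraries, bars are genotype means, and knockouts stand left of controls. Slc2a5, Slc2a7, Tkfc, Glyctk, Slc2a2 and Mlxipl are lower in all knockout libraries than in any control library, while Khk and Txnip overlap.

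Levels per length placed Khk first in both genotypes, at 204 ± 64.7 CPM per kb in knockouts and 309 ± 102 in controls (SD, n = 3 each). In knockouts Tkfc (41.5), Slc2a5 (34.1) and Txnip (33.7) followed, with library ranges that overlapped among these 3. Mlxipl (6.70), Slc2a7 (4.40) and Slc2a9 (3.70) came next, apart from Txnip and with neighbouring ranges that overlapped. In controls Slc2a5 (91.3) stood above Tkfc (67.9) and Tkfc above Txnip (54.8) with no overlap, whereas the ranges of Txnip and Slc2a7 (33.5) and of Slc2a7 and Mlxipl (20.1) overlapped. Slc2a9, Glyctk and Slc2a8 came last in both, with means of 3.70, 2.50 and 1.43 CPM per kb in knockouts and 9.31, 5.81 and 1.86 in controls. Slc2a5 made up 75.6% to 79.8% of the summed level per kb of the 4 carriers in knockouts and 64.2% to 71.9% in controls. With the length of the longest transcript in place of all exons, Slc2a9, Tkfc and Mlxipl were at 13.1, 114 and 30.8 CPM per kb in controls, which puts Tkfc above Slc2a5.

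Mlxipl (ENSMUSG00000005373, chromosome 5, 135089890 to 135138382) fell and was the most variable of the 9 among the controls. It was at 33.1, 50.5 and 27.7 CPM in knockouts 423, 476 and 477, against 167, 103 and 63.9 CPM in controls 482, 483 and 486. Every knockout was below the lowest control, although the controls themselves differed by a factor of 2.61. Control 482, the highest for Mlxipl, was the lowest control for Khk, and control 486, the lowest for Mlxipl, was the highest for Khk. The log2 fold change was -1.59 (SE 0.36, adjusted p = 0.0093). It was -1.18 without control 482 and -1.03 with the length and GC trend removed, and the call held in all 16 alternatives (largest adjusted p of 0.039). The ChREBP alpha and beta forms, which begin at different exons, share this count and were not told apart. Zfr2 (0.12), Adcy6 (0.12) and Plekhn1 (0.13) were nearest in pattern, against a median of 0.94.

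Among the partners and relatives of ChREBP, Mlx was at 215, 246 and 274 CPM in knockouts and 125, 145 and 213 CPM in controls. Every knockout was above every control, but the log2 fold change of 0.60 did not pass (adjusted p = 0.084; 0.017 without control 486). Mlxip, which encodes the paralog MondoA, averaged 22.7 ± 1.89 CPM in knockouts and 24.4 ± 6.22 CPM in controls (SD, n = 3 each; log2 fold change -0.10, 95% interval -0.61 to 0.42; 0.49 with the length and GC trend removed and 0.012 without control 482). Of 10 genes of the MLX and MAX network 3 fell and none rose by edgeR, where 18.3% of all genes fell and 17.3% rose. With library-size scaling 5 fell, where 30.3% of all genes did. At an unadjusted p under 0.05 1 rose, with DESeq2 1 rose (Mlx) and with limma-voom none. The repressor gene Mxd1 was at 173, 264 and 213 CPM in knockouts and 793, 885 and 534 CPM in controls (log2 fold change -1.77, adjusted p = 0.0018). Mxd4 fell as well (-1.42, adjusted p = 0.0023). Mga was at the edge of the threshold (-0.66, adjusted p = 0.049) and passed in only 4 of the 16 alternatives. Mxi1 (-0.68, adjusted p = 0.068) did not pass. It did with library-size scaling (adjusted p = 0.0063), with no low-count filter (0.028) and without control 486 (0.041).

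Txnip encodes an alpha-arrestin that binds thioredoxin and draws glucose carriers off the cell surface. The gene (ENSMUSG00000038393, chromosome 3, 96557957 to 96561883), whose promoter holds the paired ChREBP element, was at 72.2, 143 and 100.0 CPM in knockouts 423, 476 and 477, against 186, 189 and 138 CPM in controls 482, 483 and 486. Knockout 476 lay above control 486, so the genotypes overlapped. The log2 fold change of -0.70 (SE 0.28, 95% interval -1.32 to -0.09) had an unadjusted p of 0.030 and an adjusted p of 0.072. It passed without control 486 (adjusted p = 0.044) or knockout 476 (0.034), the 2 libraries that overlapped, and with library-size scaling (0.012) or no low-count filter (0.027). Per kilobase of exon Txnip was 5.10 ± 1.26 times Mlxipl in knockouts and 3.01 ± 0.942 times in controls (SD, n = 3 each; exact permutation p = 0.1, 0.13 adjusted). The antisense gene Gm15441 covers 19.4% of its exon bases and was at 2.86 CPM or less in every library. Pde4dip (0.06), Optn (0.07) and Sox13 (0.07) were nearest to Txnip in pattern, against a median of 0.65.

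Other textbook ChREBP target genes were mostly higher or not past the test. Of 14 tested 7 rose, where 17.3% of all genes did, and none fell by edgeR; 1 fell at an unadjusted p under 0.05 and none with DESeq2 or limma-voom. Their median log2 fold change was 0.98. When only library size was used for scaling, 2 of them rose and 2 fell, and without knockout 477 5 rose and 1 fell. The malic enzyme gene Me1 was at 592, 702 and 794 CPM in knockouts and 126, 40.6 and 116 CPM in controls (log2 fold change 2.89, adjusted p = 0.0010). The transketolase gene Tkt (1.30), Mid1ip1 (1.13), whose product activates acetyl-CoA carboxylase, and the elongase gene Elovl6 (1.07) also rose, although Mid1ip1 and Elovl6 did not pass with library-size scaling (adjusted p = 0.085 each). Many genes of this list also answer to other lipogenic factors, and the part of any factor in these changes was not tested. Arrdc4, the alpha-arrestin gene that shares with Txnip its dependence on ChREBP and MondoA, was at 18.6, 23.6 and 15.7 CPM in knockouts and 17.1, 18.2 and 17.7 CPM in controls (log2 fold change 0.13, 95% interval -0.34 to 0.60; -0.30 with library-size scaling and -0.027 without knockout 476). Of 4 tested alpha-arrestins other than Txnip 1 fell by edgeR, where 18.3% of all genes did, and 2 with DESeq2 (19.7%). The one by edgeR was Arrdc1 (-0.73, adjusted p = 0.038). Its call was lost with the length and GC trend removed (adjusted p = 0.089) and without control 482 or 483 or knockout 423 or 477 (adjusted p from 0.082 to 0.14). Arrdc2 (-0.73) and Arrdc3 (-0.74, adjusted p = 0.055) did not pass. Arrdc3 did pass with DESeq2 (adjusted p = 0.048), library-size scaling (0.017), no low-count filter (0.032) and without control 486 (0.013).

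**Figure D3:**
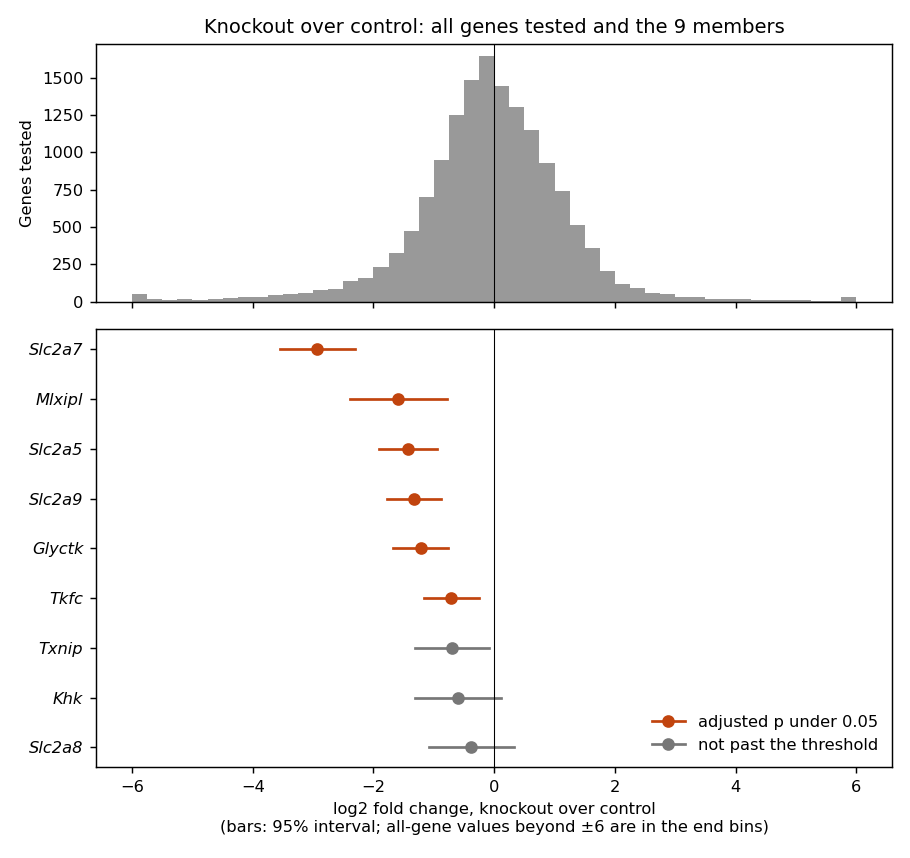
Upper panel: the number of genes tested (vertical axis) by log2 fold change of knockout over control. Lower panel: the log2 fold change of each of the 9 genes on the same axis with its 95% interval, coloured where the adjusted p is under 0.05; all 9 estimates are below 0, and the intervals of Khk and Slc2a8 reach above 0.

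Each gene was also set against the epithelial markers of the same library, a sum led by Krt20. Without Krt20 that sum was itself lower in every knockout, at 7232 to 8492 CPM in knockouts and 9681 to 10952 CPM in controls, and ratios to it were not computed. Relative to the summed CPM of the 10 epithelial structure markers, Slc2a5 was at 0.945% ± 0.109 in knockouts and 2.30% ± 0.280 in controls (SD, n = 3 each), and Slc2a7 at 0.0662% ± 0.00276 and 0.466% ± 0.166. The genotypes did not overlap for the 6 genes that fell (exact permutation p = 0.1 each, 0.13 adjusted over the 13 ratios). They overlapped for Slc2a8, Khk and Txnip (p of 0.6, 0.4 and 0.2). The 6 genes are those already apart in CPM, so the ratios are no separate support. The share of all genes apart in this ratio was not computed.

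**Figure D4:**
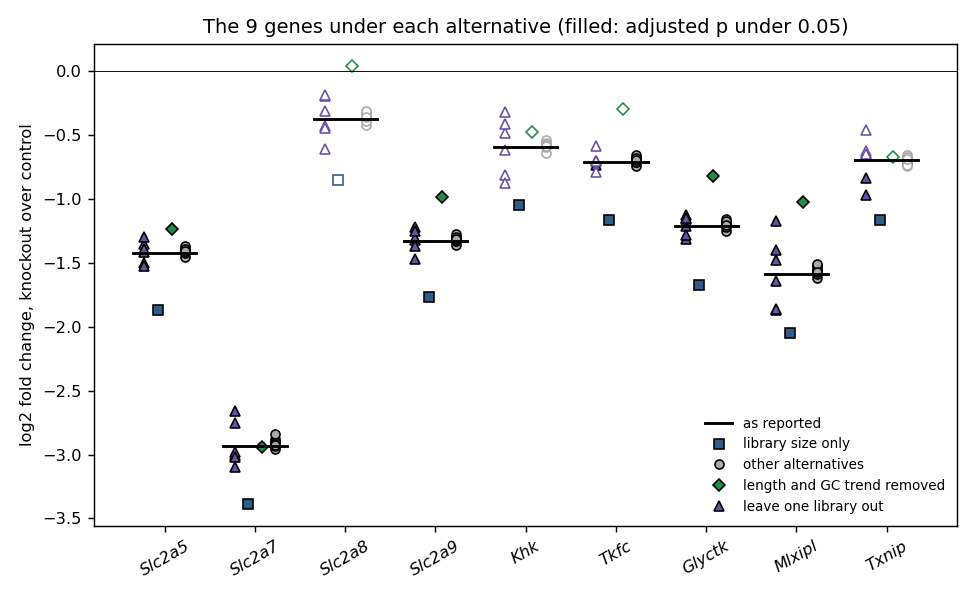
Log2 fold change of each of the 9 genes (vertical axis, knockout over control) as reported (bar) and under each of the 16 alternatives, filled where the adjusted p is under 0.05. Slc2a5, Slc2a7, Slc2a9, Glyctk and Mlxipl stay filled throughout, Tkfc, Khk and Txnip are filled in some, and Slc2a8 is open in all of them.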

How the data were processed

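The authors deposited whole-number counts per gene, not normalized, and variance-stabilised values on a log2 scale. STAR 2.7.9a, Subread 1.6.2 with featureCounts, DESeq2 1.23.10, fastp 0.21.0, bcl2fastq and FastQC 0.11.7, and the build mm10, are named in the submitters' processing notes. Neither annotation nor strand setting is stated there, so reads of antisense genes cannot be told apart.

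Groups came from sample titles, and nothing says more than 1 library was made per mouse. Counts were analysed with edgeR 4.0.16 in R 4.3.3 (filterByExpr, TMM, robust quasi-likelihood test, Benjamini-Hochberg, threshold 0.05). The script recovered known folds on simulated data with few genes changed, as many up as down. The share recovered at each fold is not given here, so recovery of changes as small as that of Tkfc cannot be read from it. Scaling under shifts as wide as those of these data was not simulated. An SE is the log2 fold change over the square root of F. Log2 CPM used a prior count of 2. GENCODE M21 gave gene coordinates, exon lengths and GC content. No library was a repeat of another: pairs within a genotype gave a chi-square of 63.8 or more for each degree of freedom.

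The members and gene lists were chosen with earlier results of these data known. Named genes were the 9 members, Mlx, Mlxip, Slc2a2, Ncor1 and, from every further list, the genes lowest in adjusted p (4 at most). The 3 genes nearest in pattern to each of 4 members were named too, leaving out genes without a symbol and Gm-number or Rik symbols. Pklr was named for its promoter only. The second targeted gene and 1 gene of the pathway lists are not reported here, and protein sequences were not used here. Alternatives were 3 scalings, 2 filters, DESeq2 1.42.0, limma-voom and limma-trend (limma 3.58.1), the 20 most abundant genes left out, the length and GC trend removed, and each library left out.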

Additional observations from a re-analysis of the deposited data

How the results depend on the processing

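Slc2a5, Slc2a7, Slc2a9, Glyctk and Mlxipl kept their direction and their call in all 16 alternatives. The number of members called was 8 under library-size scaling, 7 with no low-count filter and 5 with the length and GC trend removed. It ran from 5 to 7 with each library left out. With the length and GC trend removed the log2 fold change changed sign for Slc2a8 (0.038) and Mlxip (0.49). Mlxip was at 0.012 without control 482. Arrdc4 was at -0.30 with library-size scaling and, with each library left out, ran from -0.027 (without knockout 476) to 0.27. The number of all genes called was 5348 and ran from 3299 to 5940 with each library left out; it was 3299 without control 482, 3545 without control 483 and 3396 without knockout 477. No paired analysis was possible because the genotypes share no animal numbers. At 3 counts, the lowest level told from 0, a library held 0.0586 to 0.173 CPM (counting error only).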
